A study of Mus musculus with 6 samples.

Results

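The colon surface absorbs salt and water from its contents, and 10 genes that carry out or steer this transport were followed in colon tissue with tumors: Slc26a3, Slc9a3, Slc5a8, Slc16a1, Scnn1a, Aqp8, Aqp4, Car1, Car4 and Cftr. They were chosen by name, as all gene probes on the array that carry 1 of these symbols, which gave 20 probes for 10 of the 37325 named genes. Each of the 10 genes had a probe well above background on all 6 arrays, and each was among the 19090 genes tested. No member passed the test between the groups. The members varied widely between animals, above all in 1 treated mouse. By their brightest probes, 8 of the 10 genes were lower there than on any other array.

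All 6 animals were male C57BL/6 mice, aged 6 to 8 weeks when bought. Colitis-associated colon cancer (CAC) was induced in every one of them with azoxymethane (AOM, 10 μg/g), a carcinogen that acts on the colon, and 2% dextran sodium sulfate (DSS) in the drinking water, which injures the mucosa. The treated group of 3 mice was given RG@M-γ-CD by mouth at 30 μg/g, a dose that held 10 μg/g of RG (regorafenib, a multikinase inhibitor) enclosed in γ-cyclodextrin carrying mannose, and the control group of 3 mice was given PBS. Treatment ran for 21 days and was followed by 14 days of observation. Healthy colon, the empty carrier and free RG were not analysed here. Each mouse gave 1 one-color array of whole tissue, so that tumor, neighboring mucosa and muscle were mixed. In such bulk samples, fewer cells of a type and less RNA per cell cannot be told apart.

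In the healthy colon, sodium enters the surface cells through the sodium/hydrogen exchanger NHE3 (Slc9a3), and chloride enters in exchange for bicarbonate through DRA (Slc26a3). Carbonic anhydrases supply the protons and bicarbonate that both exchangers trade, the epithelial sodium channel adds a route under aldosterone control, and the absorbed salt draws water after it, in part through aquaporins. Monocarboxylate transporters bring in butyrate and other short-chain fatty acids made by gut bacteria. Chloride secretion through CFTR works in the opposite direction and keeps the mucus fluid. Loss of absorptive surface genes such as SLC26A3 is well known in human colon tumors, where the gene was first described as down-regulated in adenoma.

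Levels are log2 intensities from which the 75th percentile of the array (over its gene probes) was subtracted, and 1 unit is a 2-fold difference. A gene is represented by its brightest probe, and its other probes are described beside it. Values of different probes are not compared with each other, because probes bind with different strength. Between 28103 and 31219 of the 56605 gene probes (49.6% to 55.2%) were well above background on an array. RG@M-γ-CD replicate 2 correlated least with the other arrays (r = 0.941 to 0.977 over genes). A heat map of the study places the array labelled PBS replicate 1 beside RG@M-γ-CD replicates 2 and 3, and the array labelled RG@M-γ-CD replicate 1 beside PBS replicates 2 and 3. The groups used here are those of the sample labels, and the other arrangement was computed as an alternative. All 3 treated arrays and PBS replicate 1 lay in row 1 of the slide and PBS replicates 2 and 3 in row 2, so treatment and row are partly confounded.

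The windows before the start sites of the 3 members with the widest spread over the arrays (Slc26a3, Car4 and Aqp8) are shown first, with that of Slc9a3, which did not follow them. Each holds the 250 bases before the start, on the plus strand, from RefSeq (GRCm38.p6). A window was at hand for 7 of the 10 members. Capitals mark matches to a motif, searched on both strands. The TATA box, at which the transcription machinery assembles, was searched as TATAAA. A GC box, the element bound by SP1 and common in housekeeping promoters, was searched as GGGCGG. The other motifs belong to families of transcription factors that are active in the gut epithelium. GATA factors were searched by the letters AGATAA, a form of their core element. The core element of the CDX factors, which set intestinal identity, was searched in the form TTTATG. The longer palindrome of the HNF1 factors, which act in gut, liver and kidney, was searched as GTTAATNATTAA, without its closing C. No motif overlapped another in the 4 windows shown, and those of Slc26a3 and Slc9a3 lie inside the annotated span of the gene, which reaches further upstream.
Slc26a3, chr12:31437969-31438218: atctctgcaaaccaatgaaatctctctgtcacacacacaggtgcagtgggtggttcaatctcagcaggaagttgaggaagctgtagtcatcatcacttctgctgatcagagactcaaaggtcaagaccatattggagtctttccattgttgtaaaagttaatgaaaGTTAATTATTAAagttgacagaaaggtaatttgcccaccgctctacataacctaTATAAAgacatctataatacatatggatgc
Aqp8, chr7:123462044-123462293: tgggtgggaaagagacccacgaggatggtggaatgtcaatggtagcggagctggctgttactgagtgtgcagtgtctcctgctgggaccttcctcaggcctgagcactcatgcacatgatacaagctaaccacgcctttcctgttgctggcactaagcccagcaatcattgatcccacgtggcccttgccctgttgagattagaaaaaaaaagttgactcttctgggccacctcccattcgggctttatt
Car4, chr11:84957504-84957753: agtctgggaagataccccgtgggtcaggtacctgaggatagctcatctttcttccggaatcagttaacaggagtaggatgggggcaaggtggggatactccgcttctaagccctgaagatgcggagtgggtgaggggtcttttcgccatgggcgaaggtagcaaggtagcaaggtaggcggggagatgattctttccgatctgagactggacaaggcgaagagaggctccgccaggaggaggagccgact
Slc9a3, chr13:74121163-74121412: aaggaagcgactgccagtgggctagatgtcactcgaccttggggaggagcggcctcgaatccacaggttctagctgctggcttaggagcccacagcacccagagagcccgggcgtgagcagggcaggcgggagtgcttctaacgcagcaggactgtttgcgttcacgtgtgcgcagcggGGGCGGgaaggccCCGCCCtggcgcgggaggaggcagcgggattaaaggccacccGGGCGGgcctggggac
The Slc26a3 window held the HNF1 letters, beginning at position -84 from the start site, and a TATA box at -30. The base after those HNF1 letters is an A, so the full palindrome, which would close with C, was not present. The HNF1 letters were present in 20 of 32851 mouse windows of 300 bases (0.0609%, each window here counted with the 50 bases after the start), and the TATA box in 13.6% of them. In the Aqp8 window none of the 5 motifs matched, and in Car4 the TATA letters lay only after the start, at position 42. GC boxes, present in 35.7% of all windows, were found in Slc9a3, Slc5a8, Slc16a1 and Cftr. The CDX letters (11.9% of all windows) and the GATA letters (11.2%) matched in none of the 7 members. Other forms of these elements were not searched. These matches describe letters in a short window and show no binding.

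Slc26a3 encodes DRA, the apical exchanger that takes up chloride for bicarbonate, and lies at chr12:31433142-31473922 (GRCm38.p6, 40781 bp). Its level was -2.36, 3.09 and 2.01 in RG@M-γ-CD replicates 1 to 3 and 1.13, 0.88 and 1.24 in PBS replicates 1 to 3. The PBS mice lay close together, whereas the treated group held both the lowest and the highest array. The lowest, RG@M-γ-CD replicate 1, lay 9.45-fold below the next lowest array, and the whole range was 43.7-fold, wider than in 99.9% of the genes tested. The group means were 0.92 ± 2.88 and 1.08 ± 0.18 (SD, n = 3 each), a change of -0.17 (SE 1.32, 95% interval -3.34 to 3.01, limma), and the sign turned with normexp background correction (0.0054). The treated SD was thus far above the change between the groups.

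A second Slc26a3 probe gave the same lowest and the same highest array. It spans 296 bases of the genome (mm9 chr12:32133697-32133992) although it is only 60 bases long, and so crosses an exon junction. Its sequence is shown because it reads spliced transcript at another place in the gene.
Slc26a3 junction probe: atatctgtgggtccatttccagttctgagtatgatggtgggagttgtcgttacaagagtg
It read -4.60, 0.79 and -0.14 in the treated mice and -1.40, -1.33 and -1.20 in the PBS mice. Only on RG@M-γ-CD replicate 1 was it not well above background, and the PBS mice again lay close together below both other treated mice. The remaining probe of the gene (mm9 chr12:32139680-32139739) stayed at background on all 6 arrays.

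Slc9a3 encodes NHE3, which exchanges luminal sodium for protons and is the main route of electroneutral sodium uptake (chr13:74086255-74169442, 83188 bp). It read 5.27, 2.64 and 4.54 in the RG@M-γ-CD mice and 4.72, 4.90 and 4.79 in the PBS mice. Here replicate 2, not replicate 1, was the low array, 3.73-fold below the next, and replicate 1 was the highest of all 6. The PBS values lay close together, with means of 4.15 ± 1.36 and 4.80 ± 0.092 (SD, n = 3 each). The change was -0.65 (SE 0.63, 95% interval -2.17 to 0.87), and the groups overlapped. Slc9a3 was the only member in which RG@M-γ-CD replicate 2 was lowest. Over all 19090 genes tested, that array was the lowest in 6990, more than any other array. In 308 of them it lay at least 2-fold below every other array, also the most of any array. Markers of other compartments were also lowest there: the summed level of 7 leukocyte genes was 62.9 times the array's 75th percentile against 71.0 to 157 elsewhere, and that of 7 crypt base genes 55.3 against 93.1 to 174. Their part in the Slc9a3 value was not tested.

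A junction-crossing probe of Slc9a3, which covers 607 bases of the genome (mm9 chr13:74300566-74301172), is shown because it again set RG@M-γ-CD replicate 2 apart.
Slc9a3 junction probe: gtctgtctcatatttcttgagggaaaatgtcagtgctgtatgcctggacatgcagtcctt
It read -3.19, -6.23 and -3.69 in the treated mice and -3.87, -3.002 and -3.80 in the PBS mice. Replicate 2 was the 1 array on which it was not well above background.

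Among the other exchange genes, Pdzk1, a scaffold that anchors transporters at the brush border, had a change of -0.60 (SE 0.48). Of the 10 exchange genes tested, 5 were higher and 5 lower in the treated group, none at an unadjusted p below 0.05, with a median change of 0.0024 against -0.012 over all genes.

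Slc5a8 encodes SMCT1, which carries butyrate into the cell together with sodium (chr10:88885992-88929515, 43524 bp). Its 1 probe (mm9 chr10:88391888-88391947) read 0.77, 3.92 and 3.44 in the treated mice and 2.68, 3.27 and 2.43 in the PBS mice. The lowest array, RG@M-γ-CD replicate 1, was 3.15-fold below the next, while replicates 2 and 3 were the highest. The means were 2.71 ± 1.70 and 2.79 ± 0.43 (SD, n = 3 each), and the change was -0.083 (SE 0.81, 95% interval -2.02 to 1.86).

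Slc16a1 encodes MCT1, the proton-coupled carrier of lactate and butyrate (chr3:104638664-104658462, 19799 bp). Its 1 probe (mm9 chr3:104460941-104461000) read 2.69, 3.96 and 4.15 in the treated mice and 2.995, 3.67 and 3.46 in the PBS mice. Again RG@M-γ-CD replicate 1 was lowest and replicates 2 and 3 highest, but the arrays differed less than for Slc5a8, by 2.75-fold from lowest to highest. The change was 0.23 (SE 0.42, 95% interval -0.77 to 1.23), with means of 3.60 ± 0.79 and 3.37 ± 0.34.
Of the 6 monocarboxylate genes tested, 3 were higher and 3 lower. Slc16a3, which encodes the lactate exporter MCT4, ran the other way from Slc5a8, at 4.12, 2.38 and 3.72 against 3.62, 3.84 and 4.02. Its highest array was RG@M-γ-CD replicate 1 and its lowest replicate 2, as for Slc9a3, and its change was -0.42 (SE 0.45). Emb, an accessory protein of the carriers, had a change of -0.40 (SE 0.25).

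Scnn1a encodes the α subunit of the epithelial sodium channel (chr6:125314271-125344943, 30673 bp). It read 2.30, 3.09 and 2.90 in the RG@M-γ-CD mice and 2.38, 2.89 and 2.76 in the PBS mice. It varied least of the 10 members, by 1.73-fold over the arrays, which was wider than in 55.6% of the genes tested. The change was 0.086 (SE 0.26, 95% interval -0.54 to 0.71), with means of 2.76 ± 0.41 and 2.68 ± 0.27. RG@M-γ-CD replicate 1 was the lowest array by only 1.06-fold. A second probe had a change of -0.15, and its lowest array was PBS replicate 1 (-1.01, against -0.87 in RG@M-γ-CD replicate 1). Both the sign and the lowest array thus depended on the probe. All 7 tested genes of the channel and its aldosterone control were higher in the treated group, with a median change of 0.22, but none reached an unadjusted p of 0.05, and the count was 6 of 7 with the mean of a gene's probes or without PBS replicate 1 and 4 of 7 without RG@M-γ-CD replicate 2. The largest changes in that list were those of Sgk1, the aldosterone-induced kinase (0.37, SE 0.23), and of Nr3c2, the mineralocorticoid receptor (0.29, SE 0.29). The β subunit, Scnn1b, stayed at background on all 6 arrays and was not tested.

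Aqp8 encodes a water channel of surface colonocytes (chr7:123462294-123468003, 5710 bp). Its 1 probe (mm9 chr7:130611453-130611512) read -0.12, 4.57 and 4.38 in the treated mice and 3.06, 3.46 and 3.89 in the PBS mice. RG@M-γ-CD replicate 1 was 9.10-fold below the next array, and both other treated mice were above all 3 PBS mice. The 25.9-fold range exceeded that of 99.7% of the genes tested. The means were 2.94 ± 2.66 and 3.47 ± 0.41 (SD, n = 3 each), and the change was -0.53 (SE 1.23, 95% interval -3.49 to 2.43).

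Aqp4, another water channel, found in the basolateral membrane of the colon epithelium and in glia elsewhere (chr18:15389394-15410982, 21589 bp), read 1.82, 3.82 and 4.89 in the treated mice and 3.17, 4.21 and 4.56 in the PBS mice. The lowest array was RG@M-γ-CD replicate 1, by 2.55-fold, and replicate 3 highest. A second probe gave the same lowest and highest array, at -0.56, 1.65 and 2.42 against 1.02, 1.93 and 2.07. Another probe, well above background on all 6 arrays, stayed between -3.65 and -3.07 on every array. Its lowest array was PBS replicate 1 (-3.65, against -3.28 in RG@M-γ-CD replicate 1), so the lowest array depended on the probe. The last probe was at background throughout. The change of the brightest probe was -0.47 (SE 0.79, 95% interval -2.37 to 1.44), with means of 3.51 ± 1.56 and 3.98 ± 0.72.

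Of the 4 aquaporins tested, RG@M-γ-CD replicate 1 was lowest in these 2. Aqp3 stayed at background throughout, and Aqp7 was not tested either.

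Car1 and Car4 encode carbonic anhydrases, Car1 in the cytosol (chr3:14766214-14808365, 42152 bp) and Car4 tethered to the apical membrane (chr11:84957754-84966054, 8301 bp). The Car1 probes and the Car4 probe are shown because the enzymes behaved differently and the pair of Car1 probes lets the Car1 pattern be seen at separate places, mm9 chr3:14767486-14767545 for the first and chr3:14770171-14770230 for the second. The Car4 probe lies at mm9 chr11:84777667-84777726.
Car1 first probe: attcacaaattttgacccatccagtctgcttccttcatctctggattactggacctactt
Car1 second probe: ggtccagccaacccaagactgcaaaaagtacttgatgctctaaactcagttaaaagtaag
Car4 probe: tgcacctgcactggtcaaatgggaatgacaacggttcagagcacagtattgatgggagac
Car1 read 3.81, 4.09 and 6.60 in the RG@M-γ-CD mice and 3.10, 5.42 and 4.98 in the PBS mice by the first probe. By the second it read 2.95, 3.22 and 5.64 against 2.18, 4.53 and 4.05, with the 6 arrays in the same order. PBS replicate 1 was lowest and RG@M-γ-CD replicate 3 highest, 2.26-fold above the next array. The change was 0.33 (SE 0.90, 95% interval -1.85 to 2.51), with means of 4.83 ± 1.54 and 4.50 ± 1.23. Car1 was thus the 1 member in which a PBS mouse was lowest.

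Car4 read -3.39, 1.15 and 0.85 in the treated mice and -0.61, 0.16 and 1.46 in the PBS mice. RG@M-γ-CD replicate 1 was 6.84-fold below the next array, and the 28.7-fold range exceeded that of 99.8% of the genes tested. The other treated mice lay among the PBS mice, and PBS replicate 3 was highest. The change was -0.80 (SE 1.25, 95% interval -3.81 to 2.22), with means of -0.46 ± 2.54 and 0.34 ± 1.05. Car2, the widespread cytosolic enzyme, had a change of 0.56 (SE 0.28) and was not low in RG@M-γ-CD replicate 1, where it read 5.14 against 4.41 to 5.74 elsewhere. Of the 7 carbonic anhydrases tested, RG@M-γ-CD replicate 1 was lowest in Car4 alone.

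Cftr encodes the apical chloride channel of secretion (chr6:18170687-18322770, 152084 bp). It read 2.28, 3.88 and 3.92 in the RG@M-γ-CD mice and 2.66, 3.46 and 3.23 in the PBS mice. RG@M-γ-CD replicate 1 was lowest, by 1.30-fold, and replicates 2 and 3 were highest. A second probe (mm9 chr6:18217739-18217798) gave -4.88, -2.58 and -2.97 against -4.11, -3.17 and -3.71, with the same array lowest though not well above background there, and the remaining probe stayed at background throughout. The change was 0.24 (SE 0.48, 95% interval -0.92 to 1.40), with means of 3.36 ± 0.93 and 3.12 ± 0.41. Cftr and Slc16a1 had the most similar profiles of any 2 members, with a root mean square distance of 0.10 between values centred on each gene's mean over the arrays. Of the 8 secretion genes tested, 5 were higher and 3 lower. Best2, a bicarbonate channel of colonic goblet cells, had a change of 0.43 (SE 0.67). In the potassium list, 2 genes were higher and 3 lower, and the largest changes were those of Atp12a, the colonic proton-potassium pump (-0.40, SE 0.29), and Kcnma1, the channel of potassium secretion (0.34, SE 0.59). In the sodium pump list the largest were those of its regulators Fxyd4 (-0.49, SE 0.39) and Fxyd3 (-0.34, SE 0.35), with 2 genes higher and 3 lower of 5.

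**Figure D1:**
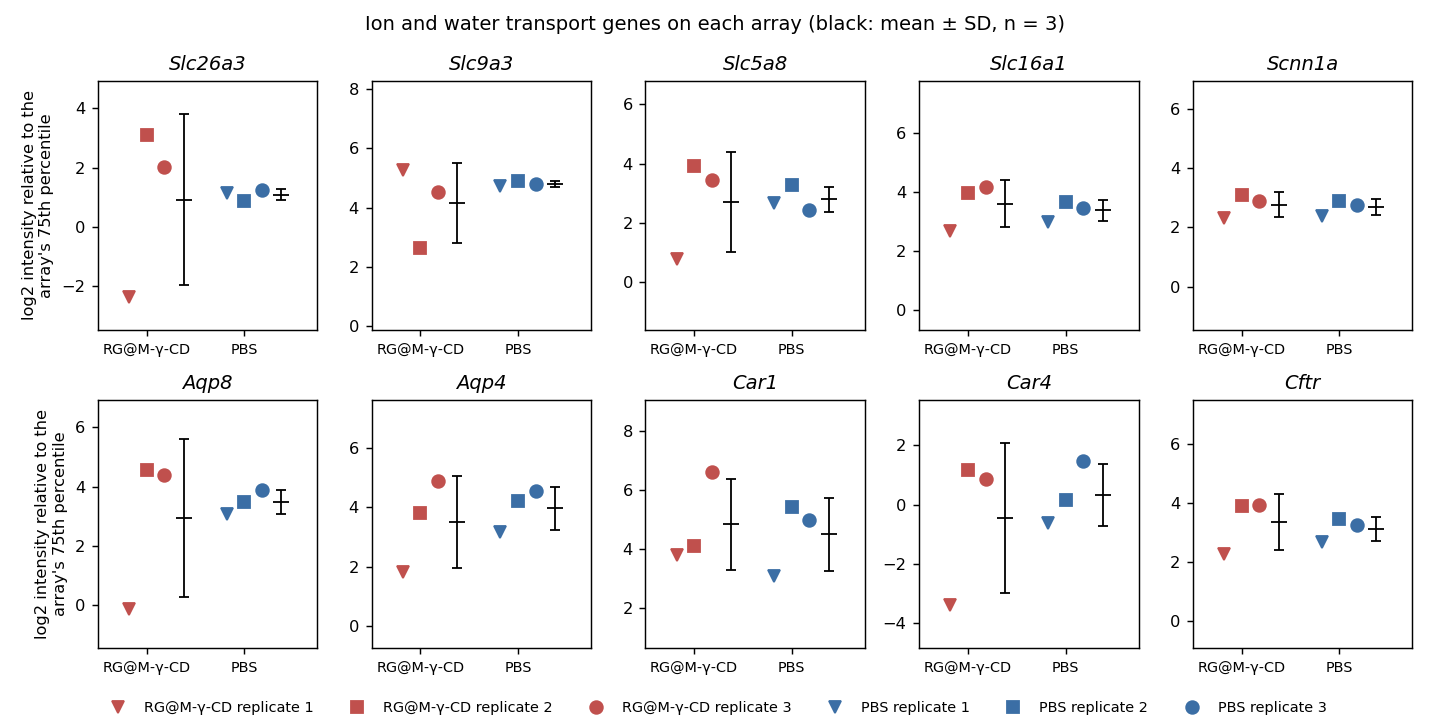
Log2 intensity relative to the array's 75th percentile (vertical axis) of the brightest probe of each of the 10 transport genes, for each of the 3 RG@M-γ-CD mice (red) and 3 PBS mice (blue), with black bars for the mean ± SD. Every panel spans the same number of log2 units, and the red triangle of RG@M-γ-CD replicate 1 lies at the bottom in 8 of 10 panels, furthest in Slc26a3, Aqp8 and Car4.

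Between the labelled groups, 0 of the 10 members passed a limma adjusted p of 0.05, as did 0 of all 19090 genes (0%). The adjusted p was 0.9999 for each member. At an unadjusted p below 0.05 there were 0 members against 2.19% of all genes (419), and 0 members against 0.561% met a 2-fold change with an unadjusted p of at most 0.05. The treated and PBS arrays overlapped in every member, against 4.57% of all genes in which they did not. Of the members, 4 were higher and 6 lower in the treated mice, with a median change of -0.13 against -0.012 over all genes. The intervals were wide, and those of Slc26a3, Aqp8 and Car4 reached below -3 and above 2 on the log2 scale, so that changes of several fold in either direction could not be seen with 3 mice in a group. Across all 8 lists of transport genes, 0 of the 52 genes tested had an unadjusted p below 0.05, while 32 were higher and 20 lower.

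The members varied widely from animal to animal. The median member ranged 8.61-fold over the 6 arrays and the median gene 1.65-fold, and all 10 members exceeded that median gene. RG@M-γ-CD replicate 1 was the lowest array in 8 of 10 members, against 18.8% of all genes (3580 of 19090). It was at least 2-fold below every other array in 5 members (Slc26a3, Aqp8, Car4, Slc5a8 and Aqp4), against 1.06% of all genes (203). In terms of values centred on each gene's mean, the median member stood at -1.44 in RG@M-γ-CD replicate 1, 0.56 in replicate 2 and 0.80 in replicate 3. In PBS replicates 1 to 3 it stood at -0.42, 0.24 and 0.27. The treated group therefore held the lowest and both highest arrays.

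**Figure D2:**
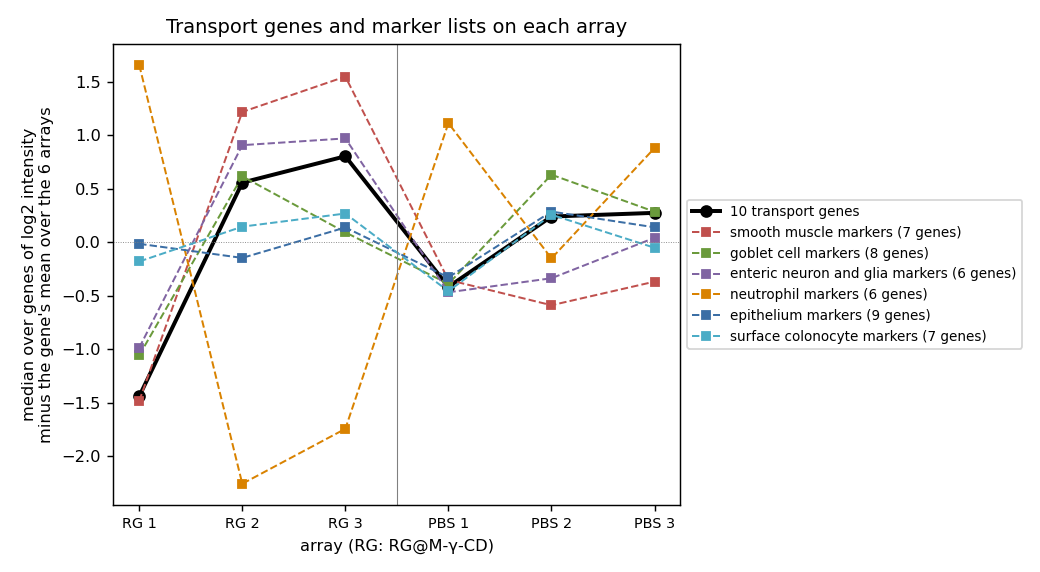
Median over genes of the log2 intensity minus the gene's mean over the 6 arrays (vertical axis), on each array (horizontal axis), for the 10 transport genes (black) and 6 lists of marker genes (dashed). The transport genes stood at -1.44 in RG@M-γ-CD replicate 1, beside smooth muscle at -1.48, goblet cells at -1.06 and enteric neurons and glia at -0.99, while epithelium markers stood at -0.015.

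Several marker lists moved with this array. Summed levels, in multiples of the array's 75th percentile, were 103 in RG@M-γ-CD replicate 1 for the 7 tested smooth muscle genes, against 665 and 799 in the other treated mice and 197 to 229 in the PBS mice. That array was lowest in 7 of those 7 genes. Lmod1, also on that list, was not among the 19090 genes tested.
For 8 goblet cell genes the sums were 552, 1717 and 1323 in the treated mice and 906 to 1850 in the PBS mice, and the same array was lowest in 8 of 8. In the neuron and glia list that array was lowest in 4 of 6 genes, with a sum of 3.90 against 3.82 to 11.6 on the other arrays. In the neutrophil list the array of this mouse was highest in 3 of 6 genes, against 5528 of all 19090 genes, the most of any array. The centred median of that list was 1.66 in RG@M-γ-CD replicate 1, -2.26 and -1.74 in replicates 2 and 3 and -0.15 to 1.11 in the PBS mice. The neutrophil sums were 96.5, 78.3 and 44.2 in the treated mice and 56.0 to 101 in the PBS mice, with Csf3r, the G-CSF receptor, highest in replicate 2 (6.25 against 5.02 to 6.01 on the other arrays).
Genes of the crypt base and of Wnt targets ran opposite to the transport genes on this array. It was highest in 5 of those 7 genes, against 5528 of all 19090 genes. Their sum was 174 there and 55.3 to 117 on the other arrays, and their centred median 0.72.
The share of these compartments in the transport values was not tested. General epithelium markers did not follow: the sum of 9 genes, among them Epcam, Cdh1, Krt8 and Vil1, was 1126 in RG@M-γ-CD replicate 1 and 1038 to 1483 on the other arrays, and that array was lowest in 2 of 9. All 9 were among the genes tested, as the label of colon tissue requires. Surface colonocyte markers outside the transport genes summed to 497 there, against 497 to 737 elsewhere, and that array was lowest in 3 of 7. Singled out after their values were seen, Fabp2, a fatty acid binding protein of absorptive cells on that list, read 1.88 against 2.32 to 5.11, whereas Krt20 read 6.47 against 5.93 to 7.07.

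The genes whose centred profile lay nearest to a member were taken from all 19090 genes, as the smallest root mean square distance over the 6 arrays. Nearest to Slc26a3 were Kcna1 (0.36), Aqp8 (0.40) and Nefm (0.44). Nearest to Car4 were Aqp8 (0.40), Rian (0.55) and LOC105242475 (0.61), and nearest to Aqp8 were Car4 (0.40), Slc26a3 (0.40) and Nefm (0.47). Members were thus among the nearest genes of each of these 3. Kcna1, a voltage-gated potassium channel, and Nefm, a neurofilament subunit, are best known from neurons, and Rian is a noncoding RNA of an imprinted cluster. Kcna1 read -6.94, -1.26 and -2.30 in the treated mice and -3.80, -3.21 and -3.88 in the PBS mice. In RG@M-γ-CD replicate 1 the probes of Kcna1, Nefm and Rian were not well above background, so their levels there are bounds. Likeness over 6 arrays is a description of these mice, and the 3 profiles share their extreme value in RG@M-γ-CD replicate 1.

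**Figure D3:**
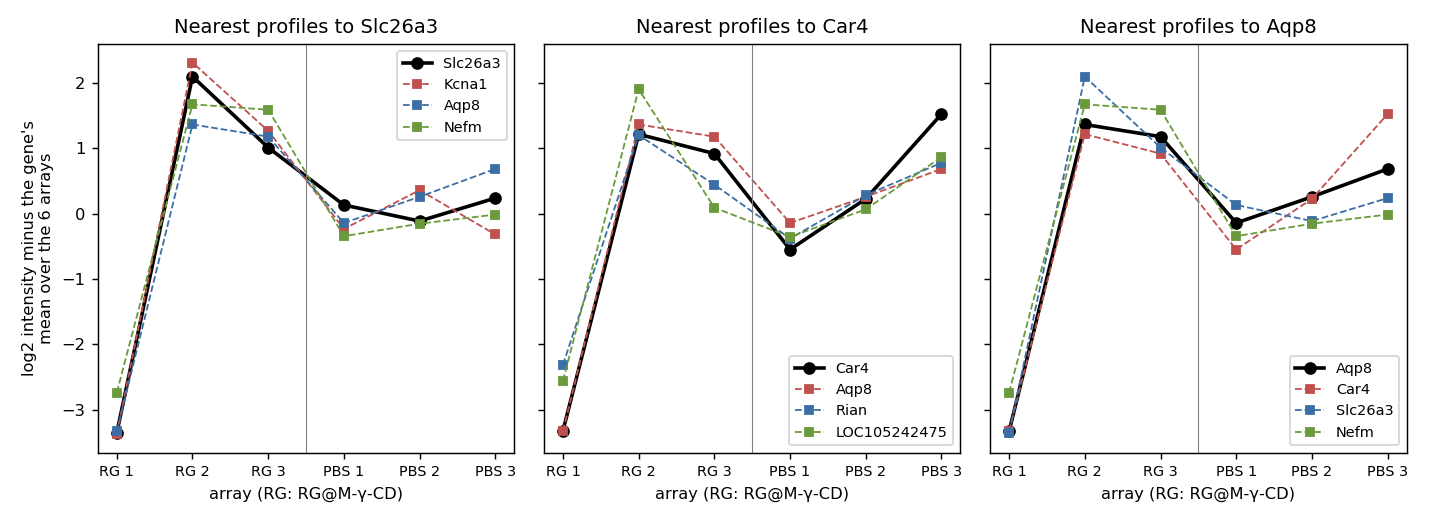
Log2 intensity minus the gene's mean over the 6 arrays (vertical axis), on each array (horizontal axis), for Slc26a3, Car4 and Aqp8 (black) and the 3 genes nearest to each (dashed). All lines dip in RG@M-γ-CD replicate 1, and the distances run from 0.36 for Kcna1 beside Slc26a3 to 0.61 for LOC105242475 beside Car4.

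Since 1 array stood lowest in most members, the comparison was also made with each array left out in turn. Only the omission of RG@M-γ-CD replicate 1 brought members past an unadjusted threshold. Taking away the array that is lowest in 8 of 10 members raises the treated mean of those genes by construction, and the array was singled out after its values were seen, so what follows is a description. With 2 treated mice left, 9 members were higher in the treated group and Slc9a3 was lower. Again 0 members passed an adjusted p of 0.05, against 1.06% of all genes (206 of 19466). At an unadjusted p below 0.05 there were 5 members, against 12.5% of all genes (2426). The groups no longer overlapped in 7 members, against 25.9% of all genes (5046).

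Slc26a3 then had the largest change, 1.47 (SE 0.34, 95% interval 0.63 to 2.31, unadjusted p = 0.00544, limma adjusted p = 0.136), or 2.77-fold. Among the increases, Aqp8 came next at 1.004 (SE 0.27, limma unadjusted p = 0.0110, adjusted p = 0.193). Slc5a8 stood at 0.89 (SE 0.31, adjusted p = 0.303), Cftr at 0.78 (SE 0.27, adjusted p = 0.302) and Slc16a1 at 0.68 (SE 0.25, adjusted p = 0.324). These 5 genes bring in chloride, water, butyrate and lactate or, for Cftr, let chloride out. Scnn1a, at 0.32 (adjusted p = 0.697), did not overlap either but was far from any threshold. Slc9a3 was lower by the low value of replicate 2, at -1.21 (SE 0.53, adjusted p = 0.446), also without overlap. Aqp4 (0.38), Car1 (0.84) and Car4 (0.67) still overlapped between the groups. Even without that array the median member ranged 3.06-fold over the remaining 5 arrays, against 1.56-fold for the median gene. Marker lists moved in the same fit. In this fit 8 smooth muscle genes were tested and 8 were higher. Of the 7 that were also tested with all 6 arrays, 7 were higher at an unadjusted p below 0.05 and 5 at an adjusted p below 0.05. Of 6 neuron and glia genes 5 were higher unadjusted. Of 6 neutrophil genes 5 were lower unadjusted and 2 adjusted, and 4 of 7 were lower unadjusted in both the crypt base and the leukocyte list. The part of these compartments in the changes was not tested.

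**Figure D4:**
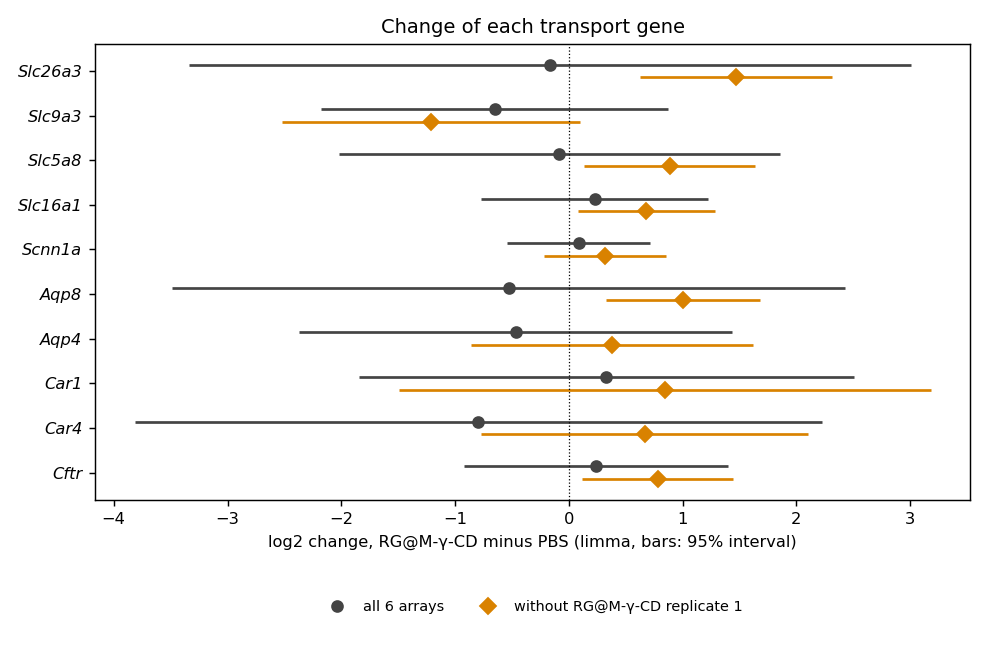
Log2 change of each transport gene, RG@M-γ-CD minus PBS (horizontal axis), with its 95% interval from limma, from all 6 arrays (grey circles) and without RG@M-γ-CD replicate 1 (orange diamonds). From all 6 arrays every interval spans 0, and without that array 9 of 10 changes lie above 0, Slc9a3 (-1.21) being the exception.

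Beyond the members, 7 further transport genes had an unadjusted p below 0.05 without that array, named here after their values were seen, and none passed after adjustment. Together with the 5 members they made up 12 of the 52 list genes, beside the 12.5% of all genes at that threshold. Higher were Slc26a2 (1.11, adjusted p = 0.115), the potassium channel Kcnma1 (1.04, adjusted p = 0.141), the monocarboxylate carrier Slc16a7 (0.88, adjusted p = 0.165), the sodium/hydrogen exchanger Slc9a2 (0.86, adjusted p = 0.209), Nr3c2 (0.58, adjusted p = 0.373) and Nedd4l, a ubiquitin ligase that withdraws the sodium channel from the membrane (0.42, adjusted p = 0.356). Lower was Fxyd4 (-0.89, adjusted p = 0.252). Slc26a2 and Slc26a3 thus differed between these arrays in the same direction, and Slc9a2 and Slc9a3 in opposite ones. Kcnma1 is also a channel of smooth muscle, whose markers moved in the same direction. The part of smooth muscle in the Kcnma1 change was not tested.

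When the arrays were arranged as the heat map places them, with neither side named treated, the side of RG@M-γ-CD replicates 2 and 3 and PBS replicate 1 was above the other by 2.16 in Slc26a3 (SE 1.01, adjusted p = 0.313), 1.60 in Aqp8 and 1.19 in Slc5a8, and the change of Slc9a3 was -1.02. In that arrangement 0 members passed an adjusted p of 0.05, against 0.0259% of all genes (5 of 19298), and 1 member, Slc9a3, had sides that did not overlap, against 25.5% of all genes (4919). Within row 1 of the slide, where PBS replicate 1 was the only control, 7 members were higher in the treated mice and 3 lower, with a median change of 0.25. Car1 stood at 1.73 there, Cftr at 0.70, Slc16a1 at 0.61, Scnn1a at 0.38, Aqp4 at 0.34, Car4 at 0.15 and Slc5a8 at 0.032, and the lower members were Aqp8 (-0.12), Slc26a3 (-0.21) and Slc9a3 (-0.57). The lone control is assumed in that fit to vary like the treated mice. The groups did not overlap in 1 member, Car1, against 38.8% of all genes (8044 of 20729).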

How the data were processed

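Colon tissue with tumors from 6 mice was hybridized to 6 one-color Agilent arrays, 3 per group, with groups taken from the sample labels. The files deposited by the authors hold the scanner intensity of each spot from Agilent Feature Extraction 10.7.1.1, corrected for background by that software and not normalized between arrays. The log2 values in the authors' table of all arrays share a single distribution, as after quantile normalization, and each column followed its own array most closely (r of 0.999 or above). The method behind that table is not given in the sources used here.

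In R 4.3.3 (with data.table, version 1.17.8), 3671 control spots and 790 outlier spots over all arrays were left out, spots of a probe were averaged as log2, and the 75th percentile of each array was subtracted. A probe was kept if well above background on all arrays of a group, and a gene was taken at its brightest kept probe. Accessions named 32994 of 56605 probes (58.3%), and the others keep the file's name. Groups were compared with limma 3.58.1 (lmFit and eBayes, Benjamini-Hochberg over all genes, two-sided). The fit was also run on simulated data in which both groups of a gene had the same spread. That run is no check for genes such as Slc26a3, whose SD was 2.88 in the treated mice and 0.18 in the PBS mice. With 3 arrays per group an exact permutation test cannot go below p = 0.1. The number of arrays limits the precision.

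Named were the 10 members with all probes, in each transport list the 2 genes with the largest change unless a gene passed an unadjusted p of 0.05 or had groups without overlap, and the 3 genes nearest to each of the 3 members with the widest range. The members and lists were chosen with earlier results of these data known. Alternatives were quantile normalization, normexp background correction (offset 50), the authors' table, other filters, outlier spots kept, all probes of a gene averaged, the methods' t-test, the replicate number or the slide row as a block, row 1 alone, the heat map's arrangement and each array left out in turn. Probe positions are those of the files (mm9), gene positions and promoter windows those of RefSeq (GRCm38.p6), and exon annotation of the probes was not used here. RT-PCR, staining and cell experiments of the study were not analysed here.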

Additional observations from a re-analysis of the deposited data

How the results depend on the processing

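No member passed an adjusted p of 0.05 under any of the 18 alternatives run, whereas signs turned often. Leaving out 1 array at a time moved the change of Aqp4 from -1.16 to 0.38, of Aqp8 from -1.34 to 1.004, of Car1 from -0.55 to 0.84, of Car4 from -1.60 to 0.67, of Cftr from -0.040 to 0.78, of Scnn1a from -0.077 to 0.32, of Slc16a1 from -0.048 to 0.68, of Slc26a3 from -1.26 to 1.47, of Slc5a8 from -0.69 to 0.89 and of Slc9a3 from -1.21 to 0.10. The highest value came without RG@M-γ-CD replicate 1 except for Slc9a3, whose lowest did. Over the same omissions the median change of the members ran from -0.63 to 0.73, the count of members without overlap from 0 to 7, that at a 2-fold change with an unadjusted p of 0.05 from 0 to 2, that at an adjusted p of 0.05 from 0 to 0, the list genes at an unadjusted p below 0.05 from 0 to 12, and the members' median range from 1.61 to 3.11. With the slide row as a block or row 1 alone the change of Aqp4 was 0.34, of Car4 0.15 and of Slc5a8 0.032. In the heat map's arrangement Slc26a3 stood at 2.16, Aqp8 at 1.60, Slc5a8 at 1.19, Car4 at 1.05, Aqp4 at 0.43 and Car1 at -0.14. Slc26a3 was 0.0054 with normexp and Scnn1a -0.032 as the mean of its probes. The list genes at an unadjusted p below 0.05 numbered 1 without a filter, 1 with the row block, 1 in row 1 alone and 2 in the heat map's arrangement, and 1 member did not overlap in each of the last 2 (all genes: 38.8% and 25.5%). Depth of signal did not limit the brightest probes, while 3 members' second probes were not well above background on 1 array each. The cause of these shifts was not tested. Over all genes, same-numbered arrays did not consistently deviate together (r of -0.25, -0.23 and 0.14). In the members, replicate 1 had the lowest centred median of each group (-1.44 treated, -0.42 PBS). With the replicate number as a block the SE of every member was smaller. It was 0.37 in place of 0.79 for Aqp4 and 1.16 in place of 1.32 for Slc26a3. The change of Slc26a3 stayed at -0.17, and no call changed.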
